A study of Mus musculus with 6 samples.

Results

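The cortex of mice given PAMAM dendrimers was set against the cortex of mice given saline, on 2 of the 6 arrays of the series. PAMAM dendrimers are branched polyamidoamine polymers used as carriers of drugs and nucleic acids. The mice were male BALB/c, an inbred laboratory strain, aged 8 weeks. One group received PAMAM at 0.15 mg/kg in a single dose into the nose, the other received saline (0 mg/kg), and tissue was taken at 24 h. Both groups have 1 array, which carries a pool of RNA from 6 separate experiments. There is thus no spread between replicates, no p-value is given, and sizes are described. The other 4 arrays hold the hippocampus and the olfactory bulb under the same treatments. Whether all regions were taken from the same mice, and which cortical area was taken, is not in the labels.

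The cortex is covered by the meninges, connective membranes whose fibroblasts make collagens, small proteoglycans and retinoic acid. Macrophages live in these membranes and around vessels. The choroid plexus is an epithelium in the ventricles that secretes cerebrospinal fluid and the thyroid hormone carrier transthyretin. Neurons answer activity with immediate-early transcription factors, followed by a later set that includes neurotrophin, activin and peptide-processing genes. Cells answer misfolded protein with cytosolic heat shock genes and with chaperones of the endoplasmic reticulum, whose promoters carry known response elements.

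A difference is the log2 value with PAMAM less that with saline, on arrays scaled to their 75th percentile. Levels are normalised signals on a scale where that percentile is 100. Genes count as measured if the scanner called their probe well above background in both cortex groups, as for 21601 of 35010 symbols. Their median difference was 0.02. A 2-fold difference or more was seen upward with PAMAM in 76 of them (0.352%) and downward in 90 (0.417%). With quantile normalisation these counts were 97 and 65, so that the share higher was 59.9% in place of 45.8%, and with normexp background 25 and 16 (61.0%). A smaller size, a log2 difference of at least 0.5, was reached upward by 593 genes (2.75%) and downward by 901 (4.17%). A value above 0 was held by 53.5% of measured genes. That share depended on level: it was 41.8% in the dimmest and 73.1% in the brightest of 4 equal classes by level. Repeated spots of 286 measured probes gave a median SD of 0.10 for a difference between single spots, which leaves out animals, labelling and hybridisation. Cortical layer markers were higher in the cortex than the mean of the other regions in 19 of 22 members under PAMAM and in 17 of 22 under saline, which fits the tissue label.

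The sequences shown here are promoters and probes that are named in the results below. The promoters of 3 endoplasmic reticulum chaperone genes carry the stress response element ERSE, those of the heat shock gene Chordc1 and the immediate-early gene Maff the heat shock element and the cyclic AMP response element. The printed promoters belong to the higher holders of each element. The first 3 are those of the ERSE holders in the folding list at 0.5 or above, and Chordc1 is the highest of 4 holders in its list. Maff alone is above 0 among the 3 holders in the immediate-early list. Promoters run from 250 bases before to 50 after the start, from RefSeq on GRCm38.p6, with the element in capitals on whichever strand it lies.
Hspa5 promoter, chr2:34771840-34772139, plus strand: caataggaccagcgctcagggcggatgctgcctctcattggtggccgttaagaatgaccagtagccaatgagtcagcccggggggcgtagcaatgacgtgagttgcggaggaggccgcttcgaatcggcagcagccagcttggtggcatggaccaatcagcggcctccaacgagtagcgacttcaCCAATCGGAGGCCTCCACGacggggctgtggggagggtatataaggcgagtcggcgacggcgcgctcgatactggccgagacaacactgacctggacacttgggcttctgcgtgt
Creld2 promoter, chr15:88819396-88819695, plus strand: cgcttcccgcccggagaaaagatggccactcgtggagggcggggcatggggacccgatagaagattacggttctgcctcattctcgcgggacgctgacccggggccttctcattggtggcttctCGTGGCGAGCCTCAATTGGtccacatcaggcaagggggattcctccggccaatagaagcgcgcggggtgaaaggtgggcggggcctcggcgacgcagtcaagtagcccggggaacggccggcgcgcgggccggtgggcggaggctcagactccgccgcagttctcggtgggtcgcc
Pdia6 promoter, chr12:17266339-17266638, plus strand: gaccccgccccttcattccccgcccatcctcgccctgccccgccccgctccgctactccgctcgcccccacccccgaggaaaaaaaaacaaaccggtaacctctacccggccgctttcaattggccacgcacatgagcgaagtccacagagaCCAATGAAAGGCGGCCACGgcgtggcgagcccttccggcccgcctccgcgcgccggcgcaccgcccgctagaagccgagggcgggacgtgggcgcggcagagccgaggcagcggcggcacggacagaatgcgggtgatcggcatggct
Chordc1 promoter, chr9:18292017-18292316, plus strand: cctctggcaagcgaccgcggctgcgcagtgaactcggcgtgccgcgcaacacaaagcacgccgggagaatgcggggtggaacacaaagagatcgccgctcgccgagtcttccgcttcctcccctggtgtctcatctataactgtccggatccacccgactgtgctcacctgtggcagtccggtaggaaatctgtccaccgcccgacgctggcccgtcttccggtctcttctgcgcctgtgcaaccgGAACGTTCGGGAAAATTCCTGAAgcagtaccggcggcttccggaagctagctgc
Maff promoter, chr15:79347270-79347569, plus strand: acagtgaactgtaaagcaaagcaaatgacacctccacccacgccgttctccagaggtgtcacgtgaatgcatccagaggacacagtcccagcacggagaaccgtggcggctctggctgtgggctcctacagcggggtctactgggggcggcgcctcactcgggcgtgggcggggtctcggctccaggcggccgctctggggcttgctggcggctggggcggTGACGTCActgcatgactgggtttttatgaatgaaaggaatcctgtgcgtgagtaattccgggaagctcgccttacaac
The other sets are probes of the array, 60 bases each, with coordinates in mm9: the probe of the activin subunit gene Inhba, 3 probes of Hmgb1 that were lower with PAMAM, and 3 lower probes for long non-coding RNAs that share the 8-base run in capitals.
Inhba probe, chr13:16118634-16118693, plus strand: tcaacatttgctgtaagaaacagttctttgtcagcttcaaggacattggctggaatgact
Hmgb1 probe 1, chr5:149861395-149861454, minus strand: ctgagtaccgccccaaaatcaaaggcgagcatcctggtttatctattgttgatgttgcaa
Hmgb1 probe 2, chr5:149861346-149861405, minus strand: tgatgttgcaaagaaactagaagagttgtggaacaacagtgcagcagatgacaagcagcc
Hmgb1 probe 3, chr5:149860420-149860479, minus strand: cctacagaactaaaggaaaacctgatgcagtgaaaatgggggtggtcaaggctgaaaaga
Non-coding RNA probe, chr17:32229402-32229461, plus strand: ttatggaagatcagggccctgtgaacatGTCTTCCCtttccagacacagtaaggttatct
Non-coding RNA probe, chr11:97309760-97309819, minus strand: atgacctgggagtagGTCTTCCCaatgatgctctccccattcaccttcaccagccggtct
Non-coding RNA probe, chr13:73479324-73479383, minus strand: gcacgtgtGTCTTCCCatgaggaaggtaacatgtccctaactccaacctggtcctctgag

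Meningeal markers were higher with PAMAM. Of 28 measured members 26 were above 0, against 53.5% of all genes, and 21 were at least 0.5, against 2.75%. At or below -0.5 stood 0, against 4.17%, and the median was 0.67. Their summed signal was 30233 on the PAMAM array and 17732 on the saline array. In bulk tissue, more cells of a type and more RNA per cell cannot be told apart. Ogn, a small proteoglycan of connective tissue, had a signal of 126 with PAMAM and 51.5 with saline, a difference of 1.29. Aldh1a2, the enzyme that makes retinoic acid in the meninges, had 101 with PAMAM and 44.4 with saline (1.18). The sulfate transporter gene Slc13a4 had 494 with PAMAM and 223 with saline (1.15). These 3 genes were at least 2-fold higher. Dcn, the collagen-binding proteoglycan decorin, had 342 with PAMAM and 177 with saline (0.95). Ptgds, which makes prostaglandin D2, had 26501 with PAMAM and 15499 with saline (0.77). Fibrillar collagens lay close together, Col1a1 at 0.63, Col1a2 at 0.76 and Col3a1 at 0.79, and so did the transcription factors Foxc1 at 0.59 and Foxd1 at 0.74. Bgn, a proteoglycan, was at -0.33 and the homeobox gene Alx4 at -0.46, the 2 members below 0. Dpep1 was not well above background on either array, and Slc47a1 was so only with PAMAM, by a bound of at least 1.28-fold.

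The macrophages that live in the same membranes showed a like shift. Of 7 measured border macrophage markers 6 were at least 0.5, against 2.75% of all genes (median 0.63). The summed signal was 216 with PAMAM and 134 with saline. Pf4, a chemokine, had 34.9 with PAMAM and 16.5 with saline (1.08). Mrc1, the mannose receptor, had 19.6 with PAMAM and 10.2 with saline (0.95). All 7 are dim, that is, not above the median measured gene on either array. Lyve1 was well above background with PAMAM only, at least 1.75-fold higher, and Cd163 and Folr2 on neither array. Microglia, the macrophages of the tissue itself, had a median of 0.13 over 25 markers. Of them 1 was at least 0.5 (Cd86 at 0.61), against 2.75% of all genes.

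Mural cell markers, of pericytes and vessel muscle, were mixed: of 13 measured 8 were above 0, against 53.5% of all genes, and 5 below. At least 0.5 were 4, against 2.75% of all genes (median 0.27). The 4 were Cnn1 (1.13, dim), Acta2, Anpep (0.74) and Tagln (0.70). Acta2, the muscle actin whose probe was spotted 10 times on each array, had 287 with PAMAM and 170 with saline (0.76, SE 0.02 over spots). The lowest members were Rgs5 at -0.32, Ndufa4l2 at -0.29 and Abcc9 at -0.24. Endothelial markers had a median of 0.16 over 22 measured, with 17 above 0, against 53.5% of all genes. At least 0.5 were 2, against 2.75%, and at or below -0.5 was 1, against 4.17%. The clotting factor carrier Vwf was at 0.60 and the tight junction gene Cldn5 at 0.38, while the lowest member was at -0.59. Of 7 red blood cell markers 6 were above 0, against 53.5% of all genes (median 0.52). Their summed signal was 22616 with PAMAM and 14778 with saline. Blood leukocyte markers were mostly undetected: 9 of 15 were well above background on neither array, and the 5 measured had a median of -0.15.

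Choroid plexus markers were above 0 in 17 of 18 measured members, against 53.5% of all genes (median 0.45). Of them 8 were at least 0.5, against 2.75% of all genes. Ttr, transthyretin, had 2076 with PAMAM and 317 with saline, a 6.56-fold difference (2.71). The folate receptor gene Folr1 had 51.1 with PAMAM and 19.5 with saline (1.39). Kcnj13, a potassium channel, had 61.9 with PAMAM and 26.5 with saline (1.22, and 1.09 on another probe). The shift was smaller for the 5 brighter members, with a median of 0.21. Without Ttr the summed signal was 4078 with PAMAM and 3450 with saline. A further 6 of the 25 members on the array were well above background with PAMAM only, and 0 with saline only. Over all 35010 symbols 637 were so with PAMAM only and 728 with saline only. Among the 6 were Kl, at a bound of at least 3.73-fold, and Kcne2, at least 2.49-fold. Sostdc1 depended on the probe, at 1.64 on one and -0.56 on the other. The neighbouring ependyma, which lines the ventricles, had a median of 0.00 over 12 markers.

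**Figure D1:**
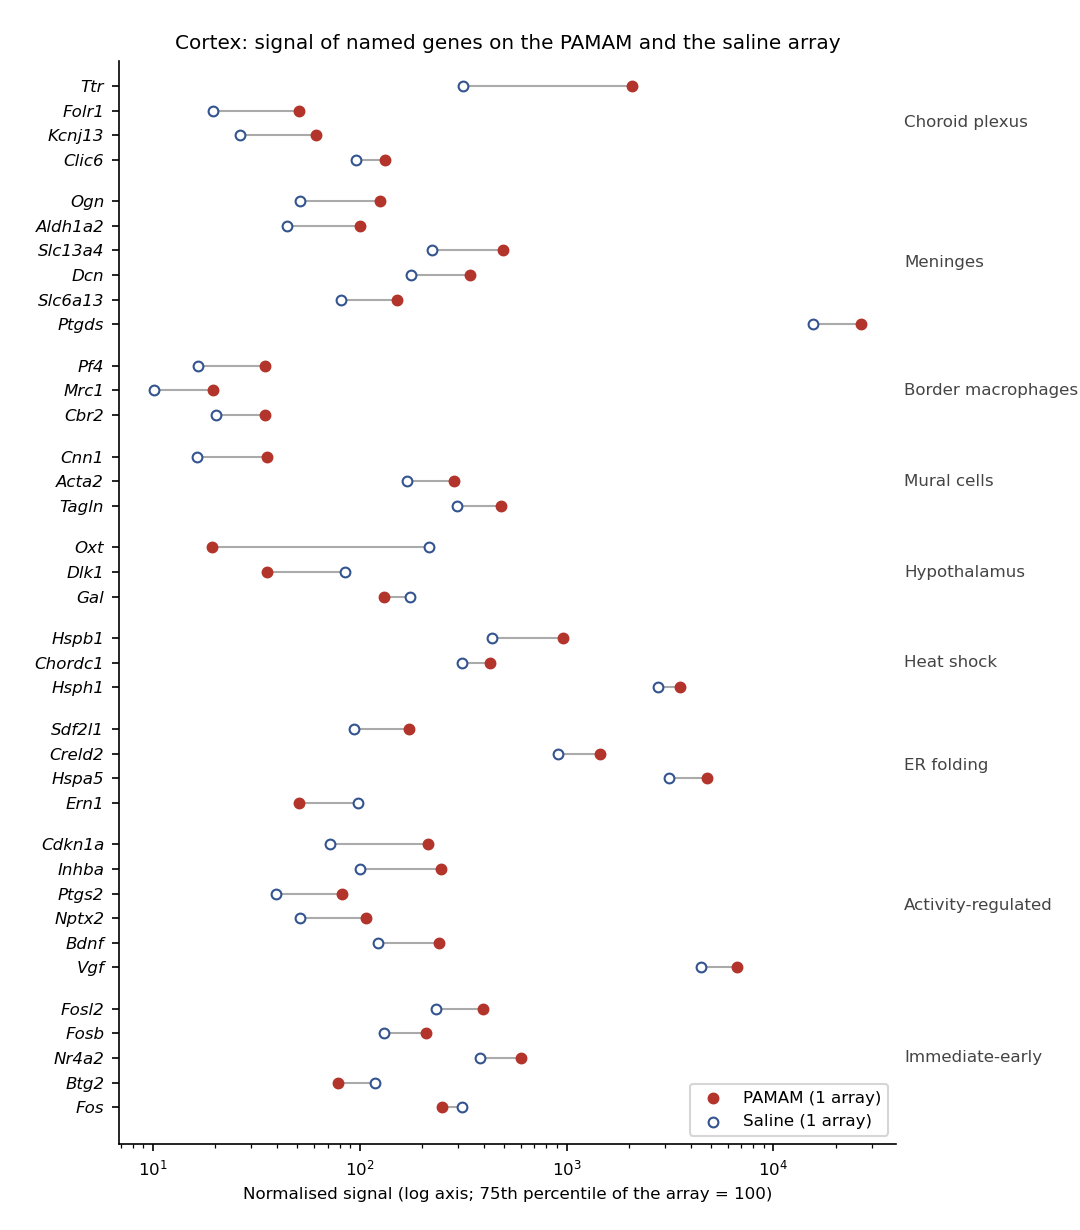
Normalised signal (log axis, 75th percentile of each array at 100) of named genes in the cortex, with 1 filled point for the PAMAM array and 1 open point for the saline array. PAMAM lies to the right of saline for the choroid plexus, meningeal, macrophage, mural, heat shock and late activity-regulated genes shown, and to the left for Oxt, Dlk1, Gal, Ern1, Btg2 and Fos. The genes are a selection from their lists: 5 of 13 measured mural markers were below 0, and so were the meningeal genes Bgn and Alx4, and none of these is drawn.

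Markers of neighbouring neuronal territories went in different directions. Hypothalamic and pituitary markers were lower: of 15 measured, 2 were above 0, against 53.5% of all genes and 41.8% of the dimmest class. Of the 15, 5 are brighter genes. At or below -0.5 were 5, against 4.17% of all genes (median -0.38, and -0.18 with normexp background). A further 5 of the 30 members were well above background with saline only, against 728 of all 35010 symbols. Oxt, the oxytocin gene, had 19.5 with PAMAM and 215 with saline (-3.47). Avp, which encodes vasopressin and adjoins Oxt, had 5.43 with PAMAM, where it was not well above background, and 89.1 with saline, at least 16.4-fold lower. Dlk1, a Notch-like surface protein, had 35.8 with PAMAM and 85.0 with saline (-1.25, and -0.75 on another probe), and Magel2 was at -0.61. Of the 30 members 10, among them Gnrh1, Sim1 and Otp, were well above background on neither array. Olfactory bulb neuron markers had a median of -0.14 over 16, with Calb2 at -1.06, Trh at -1.04 and Dlx6 at -1.01, all dim. The hippocampal neuron list had a median of 0.15 over 15, and 5 of its members were at least 0.5, against 2.75% of all genes. Among them Cpne7 had 1308 under PAMAM and 834 under saline. Striatal (-0.03) and thalamic markers (-0.05) had medians close to 0, although the dim thalamic gene Gbx2 was at -2.03. How far the dissected pieces differed in these neighbouring tissues was not tested.

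Lists for the cells of the cortex itself had medians near 0. Cortical layer markers had a median of -0.01 over 22 genes, with Nr4a2 at 0.65 and Mef2c, Rspo1 and Rorb between -0.46 and -0.44. Pan-neuronal genes had a median of 0.08 over 20, astrocyte genes 0.03 over 20 (-0.04 with quantile normalisation), oligodendrocyte genes -0.09 over 24 and oligodendrocyte precursor genes 0.00 over 10. Interneuron and neuropeptide genes had a median of 0.14 over 22. The member furthest from 0 was the dim calretinin gene Calb2 at -1.06. On the other side the peptide precursor gene Vgf, the stress hormone gene Crh and the somatostatin relative Cort were at 0.58, 0.56 and 0.52.

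Late activity-regulated genes were higher with PAMAM. Of 24 measured 22 were above 0, against 53.5% of all genes and 73.1% of the brightest class. Of the 24, 18 are brighter genes. At least 0.5 were 8, against 2.75% of all genes, and at or below -0.5 were 0, against 4.17%. The median was 0.28. The list shares 0 members with the meningeal, choroid plexus, macrophage, vessel and blood lists, which follows from how the lists were drawn up. Which cells the higher RNA came from was not tested. Cdkn1a, which encodes the cell cycle inhibitor p21, had 215 with PAMAM and 71.7 with saline (1.59, SE 0.02 over 10 spots an array). Inhba, an activin subunit that neurons induce with activity, had 248 with PAMAM and 101 with saline (1.30) on the probe printed above. Ptgs2, the inducible cyclooxygenase, had 81.9 with PAMAM and 39.3 with saline (1.06, SE 0.05 over 10 spots an array). Nptx2, a secreted pentraxin of synapses, had 107.4 with PAMAM and 51.7 with saline (1.05). These 4 were at least 2-fold higher.

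Bdnf, the neurotrophin that signals through TrkB, had 242 with PAMAM and 123 with saline (0.97). Its receptor gene Ntrk2 was at 0.07 (0.16 on 2 other probes) and the low-affinity receptor gene Ngfr at -0.34. The 8 measured neurotrophin genes had a median of 0.11. The phosphatase gene Dusp4 was at 0.95, the prohormone convertase gene Pcsk1 at 0.48 and the granin gene Scg2 at 0.45. Vgf had 6653 with PAMAM and 4440 with saline.

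Immediate-early genes were mixed. Of 22 measured 14 were above 0, against 53.5% of all genes (median 0.07). At least 0.5 were 4, against 2.75%, and at or below -0.5 were 2, against 4.17%. Maff, a small Maf factor, had 20.8 with PAMAM and 7.98 with saline (1.38, dim). Fosl2 had 393 with PAMAM and 234 with saline (0.75), and Fosb 209 with PAMAM and 131 with saline (0.68). Fos, by contrast, had 251 with PAMAM and 313 with saline (-0.32, SE 0.02 over spots), and Npas4 520 with PAMAM and 690 with saline (-0.41). Btg2 was at -0.59 and Junb at -0.58. Egr1 and Arc lay at 0.07 each. The cyclic AMP response element TGACGTCA, searched on both strands, was in 588 of 32851 promoters (1.79%), in 4 of 25 promoters of the late list and in 3 of 29 of the immediate-early list. In the late list the 4 genes that hold it, Scg2, Pcsk1, Plk2 and Arl5b, had a median of 0.35, the 12 whose promoters lack it 0.24, and the 8 with no listed promoter 0.43. In the immediate-early list the 3 that hold it, Btg2, Dusp1 and Maff, had a median of -0.07, with Maff alone above 0. The 17 whose promoters lack it had a median of 0.08. The order of genes with and without the element was thus not the same in both lists.

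**Figure D2:**
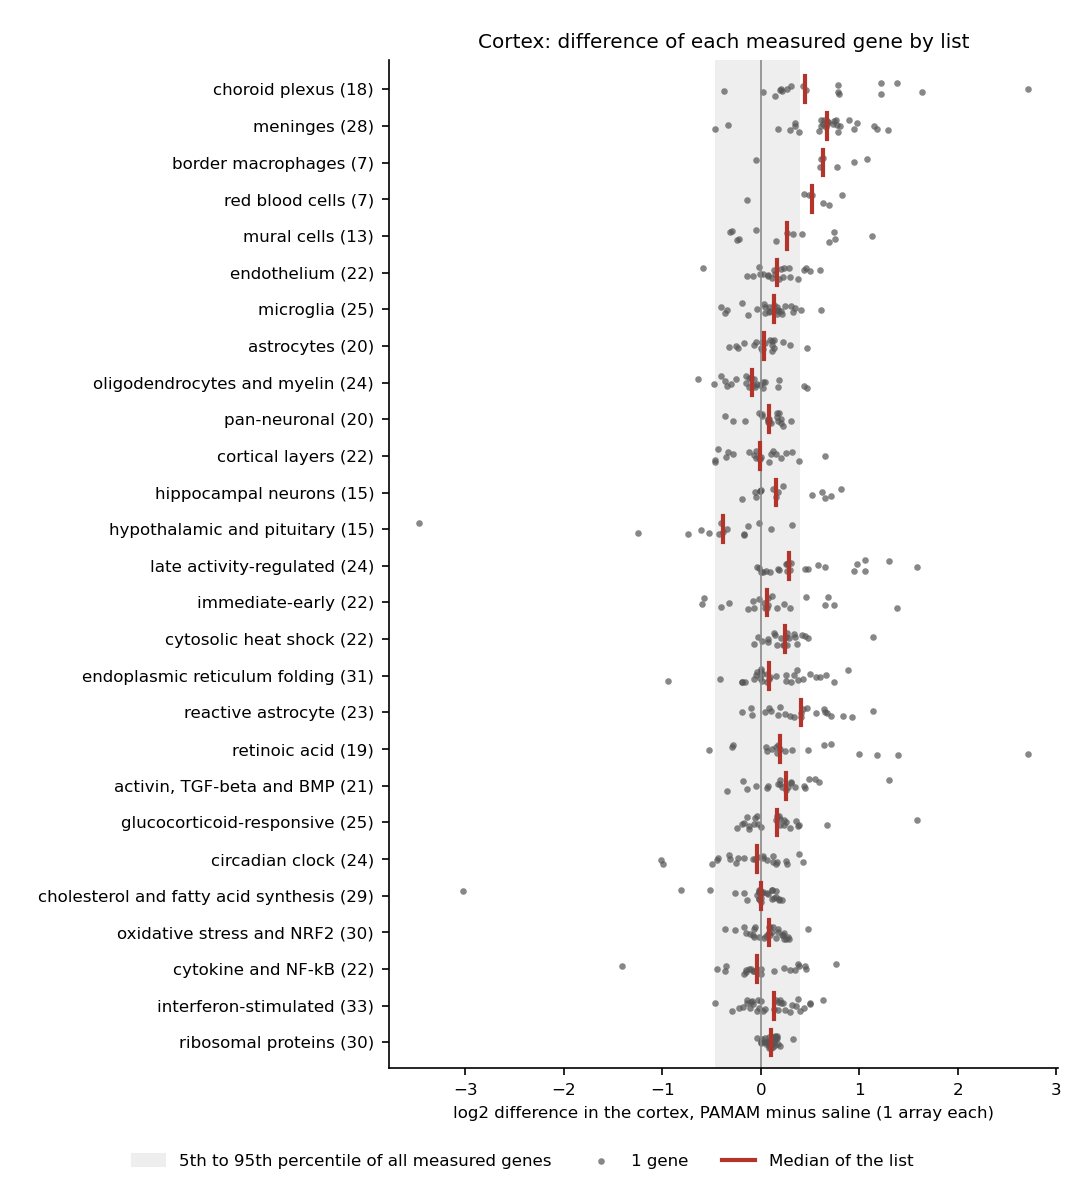
log2 difference in the cortex, PAMAM minus saline, of each measured gene (points) by list, with list medians (bars), the number of measured members in brackets, and the 5th to 95th percentile of all measured genes (shaded, -0.46 to 0.39). The 5 highest medians drawn are those of the meninges (0.67), border macrophages (0.63), red blood cells (0.52), choroid plexus (0.45) and reactive astrocyte genes (0.40), and that of the hypothalamic list (-0.38) is the lowest. The shading refers to single genes, not to medians.

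Cytosolic heat shock genes had small values, mostly above 0. Of 22 measured 20 were above 0, against 53.5% of all genes and 73.1% of the brightest class, and 19 of the 22 are brighter genes. The median was 0.25, and 0.17 with quantile normalisation. At 0.5 or above stood 1 of 22, against 2.75% of all genes. That gene was Hspb1, a small chaperone, with 964 under PAMAM and 437 under saline (1.14). Chordc1, a partner of HSP90, had 426 with PAMAM and 311 with saline (0.45), and Hsph1 3524 with PAMAM and 2781 with saline (0.34, and 0.29 on another probe). The abundant constitutive members were nearer to 0, Hspa8 at 0.15 and Hsp90aa1 at -0.07. The heat shock element, TTC, GAA and TTC with 2 free bases between each, on either strand, was in 198 of 32851 promoters (0.603%) and in 5 of 23 promoters of this list. The Chordc1 promoter above holds 3 overlapping matches. The 4 genes with the element had a median of 0.30, the 13 whose promoters lack it 0.25, and the 5 with no listed promoter 0.17.

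Endoplasmic reticulum folding genes were uneven. Of 31 measured 21 were above 0, against 53.5% of all genes and 73.1% of the brightest class. At least 0.5 were 6, against 2.75% of all genes, and 1 was at or below -0.5, against 4.17%. The median was 0.08, and 0.20 over the 24 brighter members. Sdf2l1, the highest member, had 174 with PAMAM and 93.8 with saline (0.89). Pdia4, a disulfide isomerase, had 125 with PAMAM and 74.99 with saline (0.74). Creld2 had 1443 with PAMAM and 913 with saline (0.66, SE 0.02 over 10 spots an array). Hspa5, the central chaperone BiP, had 4754 with PAMAM and 3138 with saline (0.60), and Pdia6 was at 0.56 and 0.46 on 2 probes. Atf4, a translation-controlled factor, was at 0.38 but at -0.15 on another probe, and its target Ddit3 at 0.00. The sensor kinase gene Ern1 had 51.0 with PAMAM and 98.2 with saline (-0.95, and -0.36 on another probe).

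The element ERSE, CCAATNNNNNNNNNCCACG on either strand, was in 39 of 32851 promoters (0.119%) and in 9 of 28 promoters of the folding list. It is shown in capitals for Hspa5, Creld2 and Pdia6. Of the 9 genes that hold it 8 were above 0 (median 0.26), with Derl3 at -0.42. Of the 19 whose promoters lack it 11 were above 0 (median 0.01), and Sdf2l1 and Pdia4 are among these. So are Dnajb11 and Herpud1, the 2 list members whose promoters hold another element, ERSE-II. Both groups were not matched for level. Among all measured genes the share above 0 was 41.8% in the dimmest class and 73.1% in the brightest. The 24 brighter folding genes had a median of 0.20. The part of level in the contrast by ERSE was not tested. The list was drawn up from textbook members, so its share of promoters with ERSE is background. A match does not show that the site is used.

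Retinoic acid genes were above 0 in 16 of 19, against 53.5% of all genes (median 0.20). Of them 6 were at least 0.5, against 2.75% of all genes. Cyp26b1, which degrades retinoic acid, had 214 with PAMAM and 81.2 with saline (1.40). The retinol uptake gene Stra6 was 1.995-fold higher. The retinoic acid carrier Crabp2 was at 0.64, while the retinol dehydrogenase Rdh10 was at -0.52. Of these members Aldh1a2, Crabp2, Rdh5 and Ttr also stand in a meningeal or choroid plexus list. The other 15 had a median of 0.16, with 3 at least 0.5. The part of the meningeal shift in this pathway was not tested.

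Of 23 measured reactive astrocyte genes 20 were above 0, against 53.5% of all genes, and 8 at least 0.5, against 2.75% (median 0.40). Serping1, a complement inhibitor, had 79.8 with PAMAM and 44.8 with saline (0.83, and 1.10 on another probe). Sphk1, which makes sphingosine 1-phosphate, was at 0.71 and 0.66 on 2 probes. Timp1, a metalloproteinase inhibitor, was well above background with PAMAM only, at least 4.38-fold higher. Gfap, the astrocyte filament, had 244 with PAMAM and 176 with saline (0.47), but its other probes lay between -0.10 and 0.64. Beside it stand the medians of the meningeal (0.67), endothelial (0.16) and mural markers (0.27), whose part in this list was not tested.

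In the activin, TGF-beta and BMP list 17 of 21 were above 0, against 53.5% of all genes (median 0.26), with Inhba first. The target gene Id1 was at 0.59 and Bmp4 at 0.49, and Smad3 was at 0.55 on one probe and -0.80 on another. Glucocorticoid-responsive genes had a median of 0.16 over 25, with 15 above 0, against 53.5% of all genes, and 10 below. Cdkn1a, which also stands in this list, was highest at 1.59. The co-chaperone gene Fkbp5 had 464 with PAMAM and 292 with saline (0.67). In the p53 list, which shares Cdkn1a, the median was 0.05 over 23, so that Cdkn1a stood far from the other members. Hypoxia genes had a median of 0.19 over 15 (0.08 where all probes of each gene were used) and matrix remodelling genes 0.14 over 14.

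Inflammatory and oxidative stress lists had medians between -0.04 and 0.14. Cytokine and NF-kB genes had a median of -0.04 over 22 (0.06 with normexp background), with 16 of the 38 members not measured. Socs3, a feedback inhibitor of cytokine signalling, was at 0.76, and the chemokine gene Ccl19 at -1.41 on one probe and 0.16 on another. Interferon-stimulated genes had a median of 0.14 over 33, with 1 at least 0.5 (Oasl2 at 0.63), against 2.75% of all genes. Of 30 oxidative stress and NRF2 genes 0 reached 0.5 in either direction (median 0.09), and 24 of the 30 are brighter genes. In the brightest class 39 of 5400 genes reached it upward and 48 downward, so the count of 0 does not set this list apart. Catalase (Cat) was highest at 0.48, and Sqstm1 lowest at -0.36.

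Clock, lipid and housekeeping lists lay near 0. In the clock list (median -0.04 over 24) the transcriptional repressors Ciart, with 36.3 under PAMAM and 73.2 under saline, and Bhlhe41 were at -1.01 and -0.99, and Dbp, a clock output gene, at -0.32 and -0.45 on 2 probes. Arntl, the core activator, was at 0.42. In the cholesterol and fatty acid list (median 0.00 over 29) Insig1, a brake on sterol synthesis, was at -0.81, Lss at -0.51 and the dim desaturase gene Scd4 at -3.03. Lysosomal genes (-0.01 over 29), glutamate receptor genes (0.00 over 22), GABA synapse genes (0.00 over 19) and proliferation genes (-0.04 over 9) had no member at or beyond 0.5 in either direction. Such sizes were rare among bright genes. In the brightest class 39 of 5400 genes were at least 0.5 and 48 at or below -0.5. Brighter genes make up 26 of the 29 lysosomal, 18 of the 22 glutamate receptor and 18 of the 19 GABA synapse genes, so their counts of 0 do not set these lists apart. Respiratory chain genes had a median of 0.06 over 23 (-0.04 with quantile normalisation) and ribosomal protein genes 0.10 over 30 (0.02 with quantile normalisation). Major urinary protein and other liver genes had a median of -0.40 over 9, with Mup9 at -0.98 but Serpina1c at 0.62. Members of both families are near copies of each other, and a probe may read more than 1.

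The other regions give the same treatments on other arrays, so the values stand side by side. Over the 28 meningeal genes measured in all regions the median was 0.67 in the cortex, -0.04 in the hippocampus and -0.07 in the olfactory bulb. Over 17 choroid plexus genes it was 0.43, 0.68 and 0.02 in that order. The late activity-regulated median over 24 genes was 0.28, 0.31 and 0.10, that of heat shock genes over 22 was 0.25, 0.21 and 0.12, and that of folding genes over 31 was 0.08, 0.21 and 0.13. Inhba was at 1.30, 1.18 and 0.08, Cdkn1a at 1.59, 1.31 and 0.20, and Bdnf at 0.97, 0.56 and 0.15. Fos was below 0 in each, at -0.32, -0.36 and -1.04. With 1 array per group, whether the regions differ was not tested.

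**Figure D3:**
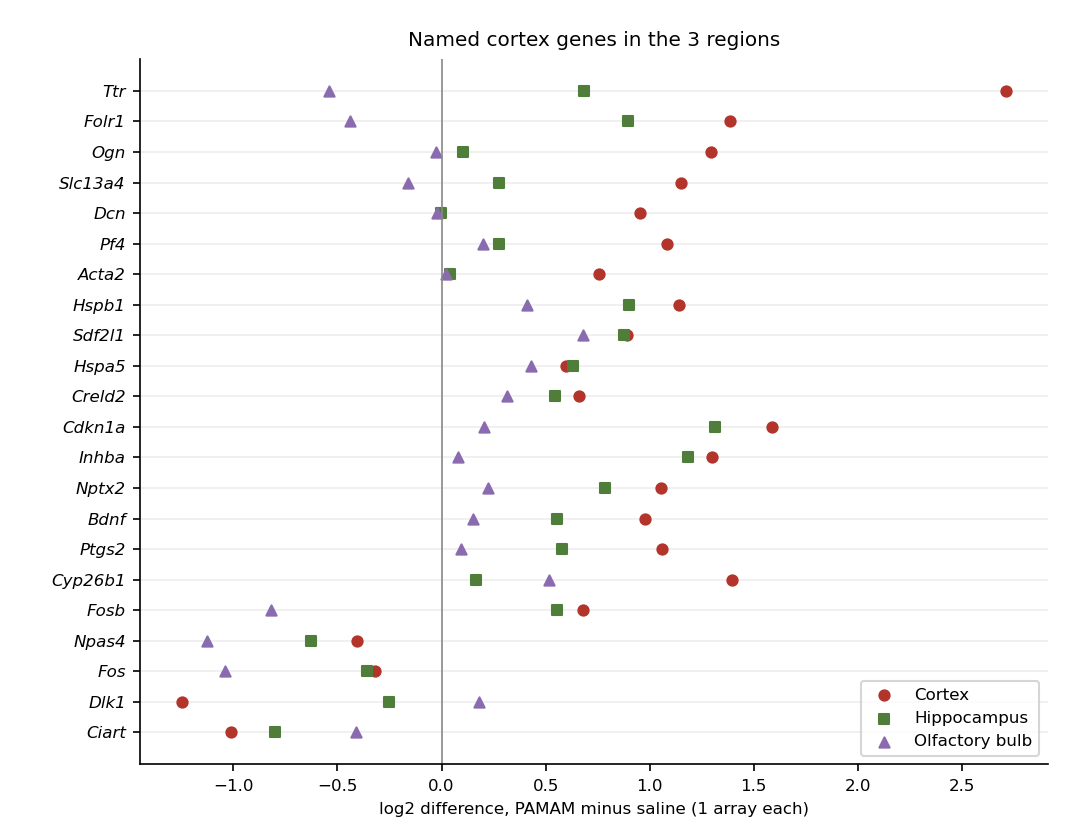
log2 difference, PAMAM minus saline, of named cortex genes (rows) in the cortex, the hippocampus and the olfactory bulb, with 1 symbol for each pair of arrays. The meningeal genes Ogn and Dcn lie at 1.29 and 0.95 in the cortex and between -0.03 and 0.10 elsewhere, while Inhba and Cdkn1a lie above 1 in both cortex and hippocampus.

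Among brighter genes, those above the median measured gene on at least 1 cortex array, the largest higher values outside the lists were those of Slc23a3, with 130 under PAMAM and 37.0 under saline (1.82), Zfp692 (1.65, but -0.11 on another probe) and the exchange factor gene Plekhg4 (1.55). Next came Syt10, a calcium sensor of secretory vesicles, with 328 under PAMAM and 144 under saline (1.18), and the cyclic GMP phosphodiesterase gene Pde5a (1.15). Maml3, a Notch coactivator gene, was at 1.15 and at -0.29 on another probe. On the lower side stood Tmlhe, an enzyme of carnitine synthesis, with 10.4 under PAMAM and 112 under saline (-3.43, but 0.04 on another probe). Slc22a13, an organic anion transporter gene, had 70.7 with PAMAM and 266 with saline (-1.91). Lbhd2 was at -1.66, the metalloproteinase gene Tll1 at -0.91, Pigz at -0.87 and Klhdc9 at -0.82. Each of these rests on 1 spot per array. Of all 35010 symbols a further 637 were well above background with PAMAM only and 728 with saline only. Their bounds passed 2-fold upward for 85 and downward for 156, led by Gpr174 (at least 13.2-fold higher) and by Olfr781 (at least 28.7-fold lower). Neither gene was well above background on both arrays of the hippocampus or of the olfactory bulb.

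Of 105 genes at 0.5 or above with another measured probe, all other probes were also above 0 for 59 (56.2%). Of 158 at -0.5 or below, all others were also below 0 for 110 (69.6%). Differences also varied with the position of a probe on the transcript. For 2492 RefSeq mRNAs with probes at least 200 bases apart in the genome, the difference at the 5′-most probe minus that at the 3′-most probe had a median of -0.14 in the cortex, -0.01 in the hippocampus and 0.02 in the olfactory bulb, the last 2 over 2571 and 2697 mRNAs. In the cortex it was -0.04 for probes 200 to 500 bases apart and -0.24 for probes over 5000 bases apart, where the 5′ probe was the lower one in 625 of 780 mRNAs (80.1%). In that class the medians of the 5′-most and 3′-most probes themselves were -0.21 and 0.03. The lower values of the PAMAM array thus lay toward 5′ probes, and the part of this slope in the results above was not tested. With the 3′-most measured probe in place of the brightest, a setting added after seeing the data, the counts were 77 higher and 90 lower. This setting can move only genes with another measured probe, which are 1 of 28 meningeal, 6 of 22 heat shock and 9 of 24 late activity-regulated genes, so it says next to nothing about those lists.

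**Figure D4:**
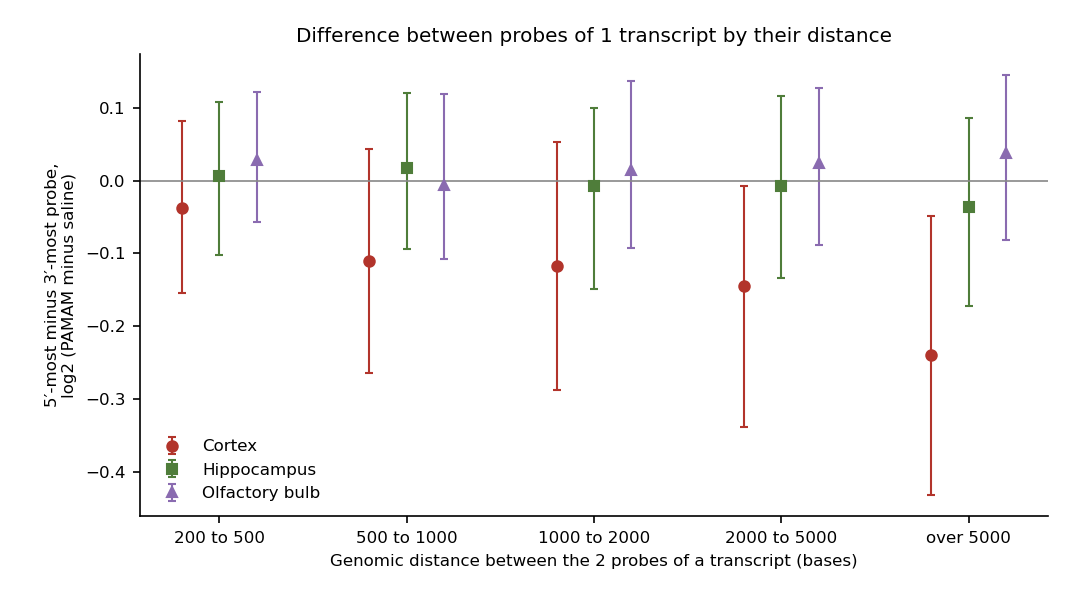
Difference (PAMAM minus saline, log2) at the 5′-most probe minus that at the 3′-most probe of the same RefSeq mRNA, by the genomic distance between both probes, with points at the median and bars at the quartiles over mRNAs. Cortex medians go from -0.04 at 200 to 500 bases to -0.24 over 5000 bases, while the other regions lie between -0.04 and 0.04.

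Groups of bright probes with shared sequence were lower with PAMAM, a pattern chosen after its values were seen. Hmgb1 encodes an abundant chromatin protein that cells also release as a danger signal, and it has many processed copies in the genome. Its 8 measured probes parted by position. Probe 1 had 722 with PAMAM and 1196 with saline (-0.73), probe 2 had 236 with PAMAM and 399 with saline (-0.76), and probe 3 had 1092 with PAMAM and 1856 with saline (-0.76). The other 5, all further 3′, lay between -0.07 and 0.21. Probes 1 to 3 were at 0.24 to 0.28 in the hippocampus and at 0.31 to 0.37 in the olfactory bulb. In all, 45 measured probes are linked to Hmgb1 by a shared run of 20 bases, 37 of them with another name or none. Of these 45, 36 were at or below -0.5 in the cortex (median -0.68). They read overlapping sequence and are not independent.

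The 8-base run GTCTTCCC, in capitals in the non-coding RNA probes above, occurs in 64 measured probes. Of them 59 (92.2%) were below 0 in the cortex, against 50.4% of all measured probes, and their median was -0.41, against -0.05 in the hippocampus and 0.11 in the olfactory bulb. It was the lowest median among 7394 runs of 8 bases with at least 50 probes, and the next lowest, TGTCTTCC at -0.27, overlaps it. Probes with its reverse complement GGGAAGAC had a median of -0.01 over 42. The printed probe on chromosome 17 had 355 with PAMAM and 631 with saline (-0.83), and that on chromosome 11 had 266 with PAMAM and 450 with saline (-0.76). The run was picked for being lowest, so its rank is a description. Of 120 brighter genes at or below -0.5, 31 are read by probes of the Hmgb1 group and 18 by probes with the run, 49 in all, with 0 in both. Neither group holds a gene among the 90 at least 2-fold lower, a count that stayed at 90 without them.

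**Figure D5:**
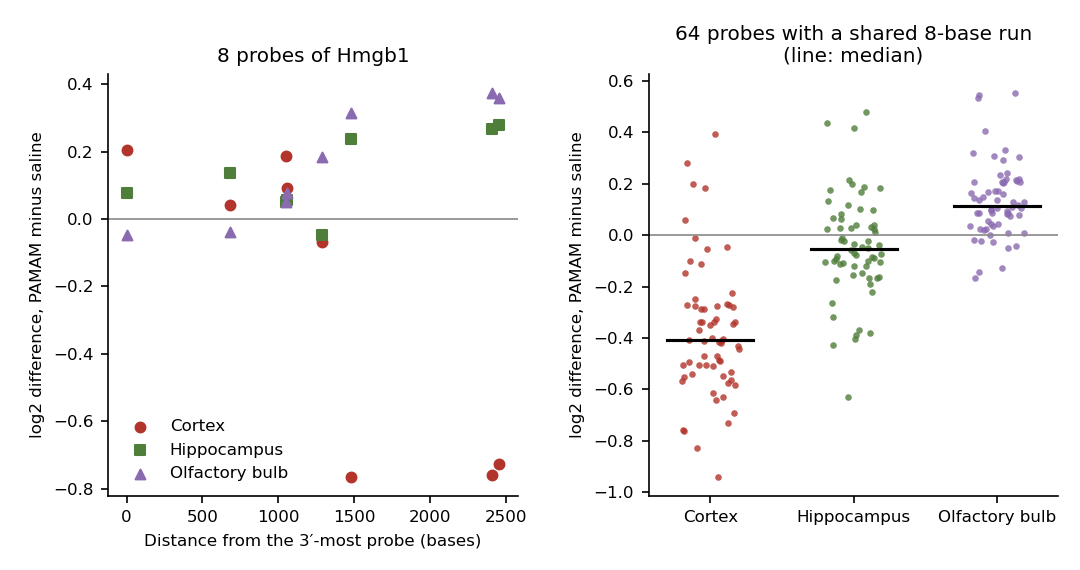
log2 difference, PAMAM minus saline. Left, the 8 measured probes of Hmgb1 by distance in bases from the 3′-most one, in each region, where the 3 farthest upstream lie at -0.76 to -0.73 in the cortex and above 0 elsewhere. Right, the 64 probes that share an 8-base run, with medians (lines) of -0.41 in the cortex, -0.05 in the hippocampus and 0.11 in the olfactory bulb.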

How the data were processed

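Each cortex array carried Cy3-labelled RNA, 1 array per group. Linear spot intensity was deposited as output of Agilent Feature Extraction, per the file headers. The authors also deposited a log2 table of the same arrays, used as an alternative. Its cortex columns had medians of 0.03 (PAMAM) and 0.04 (saline), and it matched the scaled scanner differences within 0.03 at every measured probe, which settles scale and direction, while how its values were centred is not given in the sources used here. Processed signals were scaled to each array's 75th percentile (452 for PAMAM, 542 for saline) and log2 was taken. Outlier spots were dropped, spots of a probe averaged, and the brightest probe stood for a gene. Symbols came from the files, updated through RefSeq accessions (27235 of 55681 probes matched). Of 59305 non-control spots, 34134 (PAMAM) and 34354 (saline) were well above background and 0 were saturated, and the number of arrays limits precision. Where 1 array only was well above background, the bound divides the bright signal by the dim one, or by the lowest signal well above background if that is higher. The 44 lists and the members were chosen with earlier results of these data known. Any list member could be named, those furthest from 0 first, and beyond the lists the 12 largest differences of brighter genes and the 8 largest bounds each way. The Hmgb1 probes, the shared run and the probe positions were chosen after their values were seen. All arrays lie on 1 slide. Alternatives were quantile and median scaling, normexp background, other rules for probes and filters, and the authors' table. Python 3.11.15, numpy 2.4.6, pandas 2.3.3 and limma 3.58.1 (normexp, offset 50) were used, and the calculations were tested on simulated data. Results of some list members are not reported here.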

Additional observations from a re-analysis of the deposited data

Results flagged for a closer look

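For 4 named genes at least 2-fold apart in the cortex, another region lay at least 0.5 the opposite way, and these differences between regions were not tested. Ttr, the choroid plexus marker, was at 2.71 in the cortex and -0.54 in the olfactory bulb. Cnn1, a smooth muscle gene read by a dim probe, was at 1.13 in the cortex and -1.14 in the hippocampus. Lbhd2 was at -1.66 in the cortex and 1.25 in the hippocampus. Syt10, a calcium sensor of secretory vesicles, was at 1.18 in the cortex and -0.84 in the olfactory bulb. Each value rests on 1 array per group, and groups of 1 allow no search for samples that stand apart.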

How the results depend on the processing

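Against 76 higher and 90 lower genes, the counts were 25 and 16 with normexp background, 16 and 5 over brighter genes only, and 824 and 1230 with no filter on background. Under the other 7 settings both counts stayed within 1.5 times. With no replicates, a shift over 0.0969, the SD of a difference between single spots, decided which values are given here, and it is no measure of the error of a list median. With normexp background, medians that shifted by more were those of the meninges (0.53), border macrophages (0.50), hypothalamic and pituitary genes (-0.18), cytokine and NF-kB genes (0.0635) and liver and Mup genes (-0.21). Over brighter genes they were those of the choroid plexus (0.21), ependyma (0.17), olfactory bulb neurons (-0.0315), folding genes (0.20) and neurotrophins (0.23). With no filter they were those of the choroid plexus (0.79), reactive astrocyte (0.30) and liver genes (-0.0625). The median of all probes gave 0.0841 for hypoxia and -0.14 for GABA synapse genes, and quantile normalisation -0.0392 for the respiratory chain. Subtracting the median of all genes and taking the authors' deposited table shift every gene by 1 constant below that size, so they bear on signs alone: 6 list medians near 0 took the opposite sign in the authors' deposited table. Gene values were compared between settings for 57 of the named genes, so that the other genes named above are not covered. Of the 57, normexp background shifted 35 by more than 0.0969, and quantile normalisation and the median of all probes 7 each, with 0 reversed. With the 3′-most probe, a setting added after seeing the data, the cytokine median was 0.12, and Ccl19 (0.16), Sostdc1 (-0.56) and Zfp692 (-0.11) turned round, since that setting reads another probe. The causes of the other shifts were not tested. No paired analysis was possible because the cortex holds 1 array of each group, and pairing over the 3 regions, which would average the treatment over tissues, was not run. Dim probes limit what the arrays resolve: 112 of the 166 genes past 2-fold lie in the dimmest of 4 equal classes by level.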
